A study of Mus musculus with 16 samples.

Results

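Acyl-CoA thioesterase genes were followed in mouse ventricle through their 8 members Acot1, Acot2, Acot4, Acot7, Acot8, Acot9, Acot11 and Acot13, among 24421 entries of a table of read counts per gene. The set was chosen because Acot1 was low after pressure overload in these libraries, so the members' values after pressure overload are given as a description with no test. All 8 members were among the 13522 entries that passed the filter on low counts. The 16 libraries were made from ventricular tissue, 4 in each of 4 groups: WT mice after TAC, WT mice after sham surgery, JP2CR mice after TAC and JP2CR mice after sham surgery. In TAC, transverse aortic constriction, the aortic arch is tied to a smaller width, so that the ventricle has to pump against a raised pressure. JP2CR mice carry a knock-in form of Jph2 without the codons for a short stretch of residues, which makes junctophilin-2, a protein that tethers the transverse tubules of the heart muscle cell to its calcium store, resistant to the protease calpain. The knock-in is a germline change and so is not limited to heart muscle cells. All mice were labelled as male C57BL/6N littermates, were operated on at 9 to 10 weeks of age and gave tissue 5 weeks later. Values are counts scaled to a common library total (CPM), as mean ± SD over 4 libraries unless every library is given, with replicates named by their number.

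Acyl-CoA thioesterases split an activated fatty acid, an acyl-CoA, into free fatty acid and coenzyme A. They thereby work against the acyl-CoA synthetases, and set how much acyl-CoA and free coenzyme A stands in the cytosol, the mitochondrion and the peroxisome. In the heart, which draws much of its energy from fatty acids, Acot1 in the cytosol and Acot2 in the mitochondrial matrix act on long-chain acyl-CoA, and in mouse Acot1 is a known target of PPAR-alpha, the nuclear receptor that controls fatty acid oxidation genes. The family has 2 structural kinds. The type I enzymes, an alpha/beta-hydrolase group, lie in a gene cluster, and the type II enzymes, here Acot7 and the members with higher numbers, share the hotdog fold and are scattered over the genome.

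Several facts of the libraries bear on the values. Total counts ran from 9966782 to 16609732, so that a floor of 3 counts stood for 0.181 to 0.301 CPM, counting error only. Each of the 10 ventricular cardiomyocyte markers was detected in all groups, and their summed level ran from 83594 to 88633 CPM in WT TAC libraries and from 111554 to 116085 CPM in WT sham libraries. In JP2CR the same sum ran from 84869 to 91504 CPM after TAC and from 106622 to 131705 CPM after sham surgery. Against the label of male mice, 3 JP2CR libraries held Xist counts, replicates 3 and 4 of JP2CR sham and replicate 4 of JP2CR TAC, at 141 to 194 CPM where the other 13 had at most 0.267 CPM. The first 2 had no Y-linked counts, and JP2CR TAC 4 had both, with 119 CPM of Y-linked genes. Fits without these 3 libraries, without WT TAC 3 and JP2CR TAC 3, and without all 5 of them, are among the alternatives. Adipocyte markers, 10 genes in all, summed to 30.1 to 40.3 CPM in WT TAC and 54.1 to 282 CPM in WT sham, and to 35.8 to 138 CPM in JP2CR TAC and 28.5 to 318 CPM in JP2CR sham. Ucp1 and Retn of that list were at 0 in every WT TAC library. The 10 atrial markers summed to 4029 to 7671 CPM in WT TAC and 3378 to 4898 CPM in WT sham, against 4308 to 5366 CPM in JP2CR TAC and 488 to 6274 CPM in JP2CR sham, the lowest being JP2CR sham 4. Nppa, a natriuretic peptide gene also known from loaded ventricular muscle, carried most of that sum after TAC. The other 9 atrial markers summed to 163 to 398 CPM in WT TAC and 1606 to 2530 CPM in WT sham, and to 458 to 755 CPM in JP2CR TAC and 341 to 2412 CPM in JP2CR sham. In whole tissue, fewer cells of a type and less RNA per cell cannot be told apart.

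The cluster holds 3 of the members. On chromosome 12 of GRCm38, in the GENCODE M21 annotation, Acot2, Acot1, Acot4, Acot3, Acot5 and Acot6 follow each other in this order on the plus strand within 123.489 kb, chr12:83987861-84111349. Acot1 (ENSMUSG00000072949) lies at chr12:84009490-84018371, 15616 bases after the end of Acot2 (chr12:83987861-83993873) and 20007 bases before Acot4 (chr12:84038379-84048601). The other members lie on chromosome 4 (Acot7 and Acot11), chromosome 2 (Acot8), chromosome X (Acot9) and chromosome 13 (Acot13). Exons of Acot4 overlap those of other genes over 648 bases, exons of Acot8 those of Snx21 over 246 bases, and exons of Acot11 those of Fam151a, on the opposite strand, over 1263 bases. The libraries were stranded, and whether the counting used strand was not stated.

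Acot1 and Acot2 are near copies of each other, and reads from their common stretches can be assigned to either. The coding sequences were identical at 1178 of 1236 aligned bases, 95.31%, with a longest identical run of 273 bases. The stretch of 60 aligned bases with the most differences, 13, shows where a read can tell the genes apart. It lies in exon 3 of both, at chr12:84016942-84017001 in Acot1 (coding bases 823 to 882) and chr12:83992664-83992723 in Acot2 (coding bases 946 to 1005), on the plus strand, and capitals mark the differing bases.
Acot1: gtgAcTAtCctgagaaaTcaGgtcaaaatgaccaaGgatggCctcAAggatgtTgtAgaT
Acot2: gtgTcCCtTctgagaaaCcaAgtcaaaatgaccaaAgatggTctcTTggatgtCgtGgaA
Of all stretches of 50 bases in the transcripts of Acot1, 19.2% occurred in another gene's transcripts, and 13.6% in those of Acot2. Of those in Acot2, 24.6% occurred in Acot1. At 100 bases the shares found in another gene were 12.4% for Acot1 and 17.1% for Acot2. For Acot9, 15.2% of 50-base stretches were shared with Acot10, a gene of 1 exon. No 50-base stretch of Acot7, Acot8, Acot11 or Acot13 was found in another gene. Neither the read length nor the treatment of such reads was stated, so the split between Acot1 and Acot2 is uncertain.

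Acot1, the cytosolic long-chain enzyme, was far lower after TAC than after sham surgery in both genotypes. In WT TAC libraries Acot1 stood at 1.32, 1.54, 1.43 and 2.09 CPM (17 to 26 counts), against 11.9, 12.3, 11.4 and 10.9 CPM in WT sham libraries (141 to 197 counts). In JP2CR TAC libraries it stood at 2.46, 1.79, 2.01 and 2.69 CPM, against 9.71, 10.7, 3.67 and 19.9 CPM in JP2CR sham libraries. In both genotypes every TAC library lay below every sham library. In WT 41.9% of all genes, and in JP2CR 41.5%, differed between TAC and sham in the test across all genes, and nothing is read from this for the members, which were chosen on it. The log2 fold change from the fit across all genes (edgeR, estimate ± SE) was -2.87 ± 0.37 in WT, a 7.29-fold lower level, and -2.26 ± 0.35 in JP2CR, a 4.79-fold lower level. In the authors' deposited table the log2 fold changes were -2.61 in WT and -1.58 in JP2CR.

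The spread of Acot1 was uneven between groups. Its coefficient of variation was 61.0% in JP2CR sham and 5.24% in WT sham. At the 141 to 197 counts per library of WT sham, counting error alone would give a spread at least as large as the latter. JP2CR sham 3, the lowest, and JP2CR sham 4, the highest, were both libraries with Xist counts. The JP2CR estimate moved with each of them: without JP2CR sham 4 the JP2CR estimate was -1.81, without JP2CR sham 3 it was -2.56, and without the 3 libraries with Xist counts it was -2.28. The adipocyte sum was 318 CPM in JP2CR sham 3, the highest of all libraries, and the atrial sum was the lowest in JP2CR sham 4. The part of these in the result was not tested. With the means of both marker lists as covariates, the estimate in WT was -4.07 and in JP2CR -2.22. In WT neither mean overlapped between TAC and sham. The adipocyte mean log2 CPM was -1.58 to -0.19 in WT TAC and 1.29 to 4.15 in WT sham. The atrial mean was 3.53 to 4.59 in WT TAC and 6.00 to 7.17 in WT sham. The WT estimate of this fit therefore cannot tell TAC and the markers apart.

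Acot2 was also lower after TAC, by less. Its levels were 33.4, 35.8, 34.9 and 36.7 CPM in WT TAC, against 66.5, 68.0, 64.1 and 68.3 CPM in WT sham. In JP2CR TAC they were 38.2, 33.0, 33.6 and 37.9 CPM, against 53.9, 60.4, 48.2 and 94.6 CPM in JP2CR sham, where replicate 4 again was the highest and replicate 3 the lowest. Neither genotype's TAC and sham libraries overlapped. The log2 fold change was -0.93 ± 0.14 in WT and -0.85 ± 0.15 in JP2CR.

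The share of Acot1 in the summed counts of the pair was lower after TAC as well. Acot1 made up 4.31 ± 0.72% of Acot1 and Acot2 counts in WT TAC and 14.8 ± 0.74% in WT sham (SD, n = 4 each). In JP2CR it was 5.86 ± 0.63% after TAC and 13.7 ± 4.53% after sham surgery. JP2CR sham 3 had a share of 7.08% (exact 95% binomial interval 5.45 to 9.02%), near the JP2CR TAC range of 5.14 to 6.62%. The other JP2CR sham libraries lay between 15.1 and 17.4%, close to the 13.7 to 15.3% of WT sham.

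**Figure D1:**
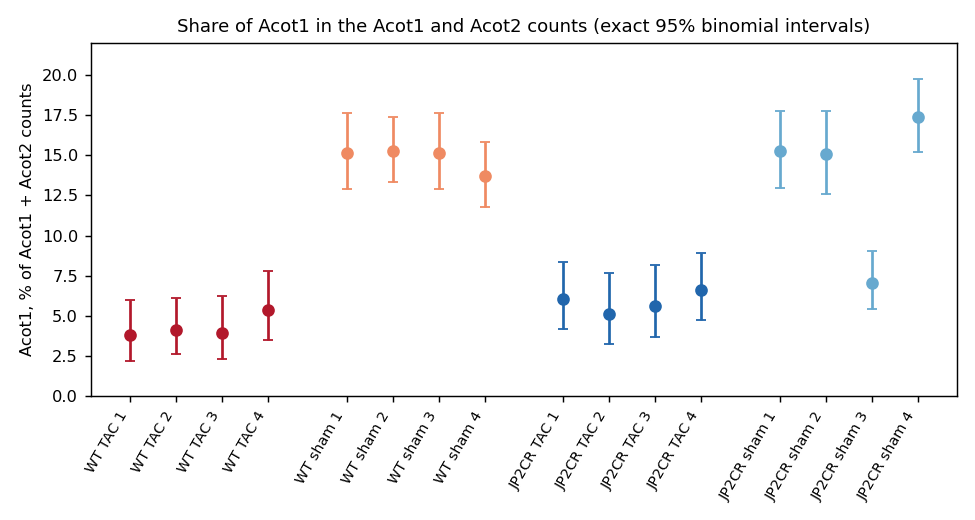
Share of Acot1 in the summed Acot1 and Acot2 counts (percent, y axis) in each of the 16 libraries (x axis), with exact 95% binomial intervals as bars. The 8 TAC libraries lie between 3.79 and 6.62%, and JP2CR sham 3, at 7.08%, is the one sham library near them.

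The promoters of the cluster members are shown because neighbouring genes on the same strand differed in their levels after TAC: Acot1 and Acot2 were lower in every TAC library than in any sham library of the same genotype, and for Acot4 the groups overlapped. The 250 bases before the start of each gene, from RefSeq on GRCm38.p6, plus strand, are given for Acot1 (chr12:84009252-84009501), Acot2 (chr12:83987611-83987860) and Acot4 (chr12:84038129-84038378). Capitals mark CCAAT and the half-site AGGTCA on either strand.
Acot1: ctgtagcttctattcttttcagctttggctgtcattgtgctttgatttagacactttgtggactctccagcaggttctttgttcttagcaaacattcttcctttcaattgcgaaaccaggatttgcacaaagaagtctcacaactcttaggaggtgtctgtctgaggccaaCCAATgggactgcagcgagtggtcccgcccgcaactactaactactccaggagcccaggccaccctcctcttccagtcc
Acot2: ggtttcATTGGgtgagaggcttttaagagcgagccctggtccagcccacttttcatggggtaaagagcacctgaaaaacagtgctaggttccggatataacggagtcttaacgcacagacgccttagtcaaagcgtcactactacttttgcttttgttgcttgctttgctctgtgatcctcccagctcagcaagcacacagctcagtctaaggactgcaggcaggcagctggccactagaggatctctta
Acot4: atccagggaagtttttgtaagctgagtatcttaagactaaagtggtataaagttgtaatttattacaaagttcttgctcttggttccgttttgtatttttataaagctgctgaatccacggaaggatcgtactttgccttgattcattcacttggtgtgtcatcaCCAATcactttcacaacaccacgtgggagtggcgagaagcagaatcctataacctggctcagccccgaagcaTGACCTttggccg
Nuclear receptors such as PPAR-alpha with RXR bind a pair of such half-sites in a row, searched here as AGGTCA, any 1 base, AGGTCA. Both strands were searched in the 250-base window. The half-site was found in 14% of 32851 RefSeq promoters, the pair in 0.0335%, and CCAAT in 33.8%. Of the 7 members with a promoter entry, Acot4 alone held a half-site, on the minus strand at bases -13 to -8 from the start, and the pair was in none of them. Acot1 held CCAAT at bases -79 to -75 and, on the minus strand, the GC box GGGCGG at -55 to -50, a motif found in 32.7% of promoters. TATAAA, found in 12.4% of promoters, and the extended half-site TNAAGGTCA, found in 1.14%, were found in neither Acot1 nor Acot2, and Acot4 held TATAAA at -205 to -200 and -151 to -146 and, on the minus strand, at -153 to -148. Acot2 held CCAAT on the minus strand at -244 to -240, and Acot4 held it at -85 to -81. A match describes the letters of the window. The lack of one says nothing of sites elsewhere, nor of sites in the window whose letters differ from those searched. As 0.0335% of promoters held the pair, its lack is what nearly all promoters show.

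Acot4, the third cluster member, is in mouse a peroxisomal enzyme that acts on succinyl-CoA and other dicarboxylic acyl-CoAs. Its level was near the floor. It had 8 to 27 counts per library, with 0.853, 1.80, 1.34 and 0.962 CPM in WT TAC against 0.670, 1.06, 1.62 and 1.18 CPM in WT sham. In JP2CR TAC it had 1.12, 1.95, 1.32 and 1.08 CPM, against 1.13, 1.10, 0.612 and 1.24 CPM in JP2CR sham. TAC and sham libraries overlapped in both genotypes, and the log2 fold change was 0.14 ± 0.32 in WT and 0.43 ± 0.32 in JP2CR.

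Acot7, the cytosolic enzyme best known from brain, where it hydrolyses arachidonoyl-CoA and other long-chain acyl-CoAs, was lower after TAC. It stood at 61.8, 50.4, 56.2 and 53.6 CPM in WT TAC against 70.1, 77.5, 70.0 and 72.0 CPM in WT sham. It stood at 45.5, 47.5, 49.2 and 59.5 CPM in JP2CR TAC against 69.7, 63.1, 68.4 and 75.3 CPM in JP2CR sham. The groups did not overlap in either genotype, and the log2 fold change was -0.39 ± 0.08 in WT and -0.47 ± 0.08 in JP2CR.

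Acot9, a mitochondrial enzyme of the hotdog kind, was higher after TAC. Its levels were 38.2, 38.6, 36.7 and 40.3 CPM in WT TAC against 31.0, 26.3, 30.3 and 28.0 CPM in WT sham. In JP2CR TAC they were 38.1, 44.5, 37.1 and 40.1 CPM, against 27.8, 26.7, 28.9 and 26.6 CPM in JP2CR sham. No TAC library reached down to a sham library in either genotype. The log2 fold change was 0.41 ± 0.07 in WT and 0.52 ± 0.07 in JP2CR. Acot10, which shares sequence with it, had at most 5 counts in a library.

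Acot13, also called Them2, is a hotdog thioesterase associated with mitochondria that acts on medium- and long-chain acyl-CoA and had the highest CPM of the family. It stood at 236.2, 224.9, 242.9 and 231.0 CPM in WT TAC against 217.8, 207.6, 215.8 and 209.1 CPM in WT sham, with no overlap. In JP2CR the groups overlapped, with 223.7, 214.7, 217.7 and 209.0 CPM after TAC against 215.0, 203.7, 238.2 and 238.5 CPM after sham surgery. The 2 highest JP2CR sham values belonged to the libraries with Xist counts. The log2 fold change was 0.13 ± 0.05 in WT and -0.06 ± 0.05 in JP2CR, and in JP2CR it was 0.06 without the 3 libraries with Xist counts.

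Acot11, a thioesterase with a START lipid-binding domain known from brown fat, stood at 37.9, 31.8, 36.9 and 40.6 CPM in WT TAC against 40.0, 47.2, 47.0 and 46.3 CPM in WT sham. In JP2CR TAC it stood at 43.7, 33.6, 36.3 and 43.4 CPM, against 40.5, 37.1, 69.4 and 53.3 CPM in JP2CR sham. TAC and sham libraries overlapped in both genotypes. The log2 fold change was -0.30 ± 0.15 in WT and -0.37 ± 0.15 in JP2CR. The highest value, in JP2CR sham 3, was that of the library with the highest adipocyte sum, and WT sham 1, with the lowest adipocyte sum of its group, had the lowest Acot11 of its group. With the marker means as covariates the WT estimate was 0.15, and without the 3 libraries with Xist counts the JP2CR estimate was -0.04.

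**Figure D2:**
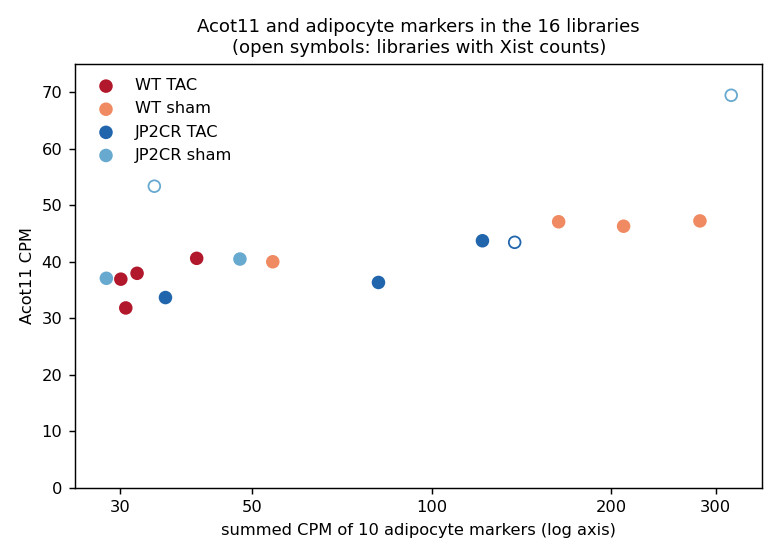
Acot11 level (CPM, y axis) against the summed CPM of 10 adipocyte markers (log axis) in the 16 libraries, coloured by group, with open symbols for the libraries with Xist counts. JP2CR sham 3 lies at the top right, at 69.4 CPM of Acot11 and 318 CPM of the markers, and JP2CR sham 4 has 53.3 CPM of Acot11 at a low marker sum.

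Acot8, a peroxisomal thioesterase of broad acyl-CoA range, showed no separation. Its level ran from 7.42 to 7.91 CPM in WT TAC and from 6.81 to 9.34 CPM in WT sham, and from 7.28 to 8.53 CPM in JP2CR TAC and from 6.95 to 9.70 CPM in JP2CR sham. The log2 fold change was -0.03 ± 0.12 in WT and -0.04 ± 0.12 in JP2CR.

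**Figure D3:**
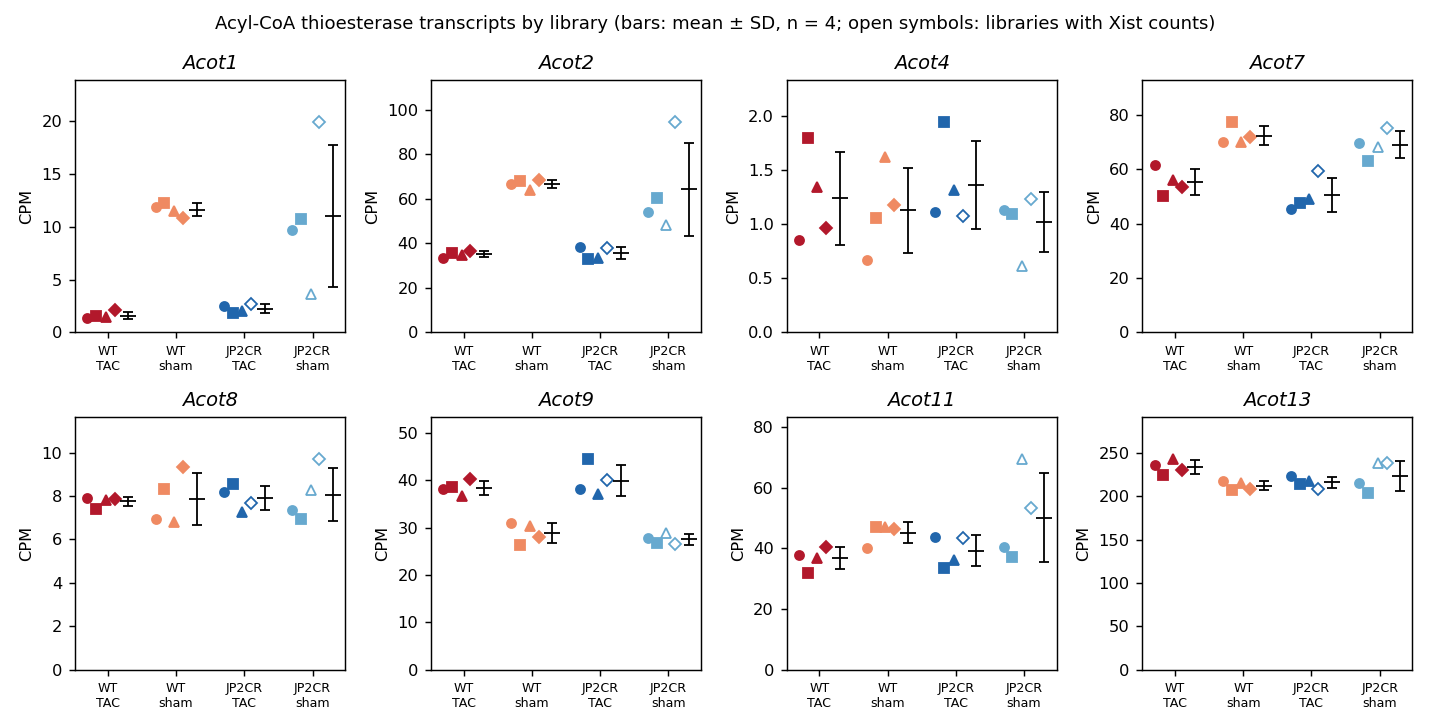
Level of each member (CPM, y axis from 0) in the 4 groups, 1 point per library, with the mean ± SD (n = 4) beside the points and open symbols for the 3 libraries with Xist counts. Acot1, Acot2 and Acot7 lie lower and Acot9 higher in TAC than in sham libraries of both genotypes, and the JP2CR sham points of Acot1, Acot2 and Acot11 are widely scattered.

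Over the 8 members the median log2 fold change was -0.17 in WT, with 3 members positive and 5 negative, and -0.22 in JP2CR, with 2 positive and 6 negative. Over all 13522 tested genes the median was -0.00 in both. In WT, 2 members (Acot9 and Acot13) lay wholly above and 3 (Acot1, Acot2 and Acot7) wholly below the sham range, where 21.6% of all genes lay above and 20.5% below. In JP2CR, 1 member (Acot9) lay above and 3 (Acot1, Acot2 and Acot7) below, where 17.8% and 16.3% of all genes did. As the members were chosen on this contrast, nothing is read from these counts. The summed level of the 8 members was 410 ± 12.2 CPM in WT TAC and 446 ± 1.62 CPM in WT sham, and 393 ± 9.33 CPM in JP2CR TAC and 455 ± 49.0 CPM in JP2CR sham.

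**Figure D4:**
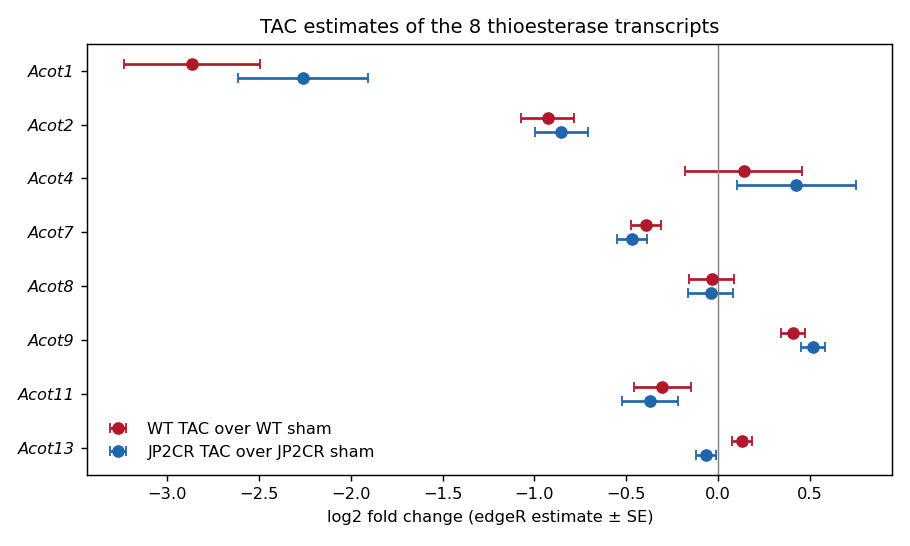
Log2 fold change of TAC over sham (x axis, edgeR estimate with its SE as bars) for each member in WT (red) and JP2CR (blue). Acot1 stands farthest to the left, at -2.87 in WT and -2.26 in JP2CR, and Acot9 farthest to the right in both, at 0.41 in WT and 0.52 in JP2CR.

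Levels between genes were compared per kilobase of transcript, using the longest protein-coding transcript of each gene. Acot13 was first with 324 ± 10.6 CPM per kb in WT TAC and 295 ± 6.95 CPM per kb in WT sham. Acot7 was second with 36.9 ± 3.20 CPM per kb in WT TAC and 48.1 ± 2.34 CPM per kb in WT sham. In the third place stood Acot9 in both TAC groups (21.9 ± 0.83 CPM per kb in WT TAC) and Acot2 in both sham groups (30.4 ± 0.87 CPM per kb in WT sham). Acot1 was 7th of 8 in every group, with 0.70 ± 0.15 CPM per kb in WT TAC and 5.11 ± 0.27 CPM per kb in WT sham, and Acot4 was last. In WT TAC Acot8 was 5th and Acot11 6th, at 6.73 ± 0.20 and 6.47 ± 0.65 CPM per kb. In the other groups Acot11 was 5th and Acot8 6th, at 7.93 ± 0.61 and 6.83 ± 1.04 CPM per kb in WT sham.

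Across groups, the order of Acot1 from low to high by its median was WT TAC, at 1.48 CPM, JP2CR TAC, at 2.24 CPM, JP2CR sham, at 10.2 CPM, and WT sham, at 11.7 CPM. Neighbours within the sham pair and within the TAC pair overlapped, and the sham and TAC pairs did not.

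The genotype comparisons ask whether the calpain-resistant junctophilin-2 changes these levels, and they were not used to choose the members. None of the 8 members was called at a Benjamini-Hochberg adjusted p under 0.05 by edgeR's quasi-likelihood test in JP2CR sham against WT sham, where 0.0961% of all genes were called, nor in JP2CR TAC against WT TAC, where 0.651% were called, nor in the difference of the TAC effects between genotypes (the interaction), where 0.118% were called. By direction, 0% of all genes were called higher and 0.0961% lower in JP2CR sham than in WT sham, 0.362% higher and 0.288% lower in JP2CR TAC than in WT TAC, and 0.0887% higher and 0.0296% lower in the interaction. The smallest adjusted p of a member was 0.751, 0.388 and 0.352 in these 3 comparisons. At an unadjusted p under 0.05 there were 0, 1 and 1 of the 8 members, where 7.97%, 12.9% and 10.3% of all genes were, and nothing is read from these counts. At an adjusted p under 0.05 DESeq2 and limma voom also called 0 members.

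Acot13 gave the single unadjusted result in both. It averaged 216 ± 6.11 CPM in JP2CR TAC and 234 ± 7.64 CPM in WT TAC, with no overlap, where 4.09% of all genes lay wholly higher and 3.97% wholly lower. No member was free of overlap between JP2CR sham and WT sham, where 1.77% of all genes lay wholly higher and 3.04% wholly lower. The log2 difference was -0.11 (95% interval -0.23 to -0.00) with an edgeR adjusted p of 0.388. Its interaction was -0.20 (95% interval -0.36 to -0.04) with an edgeR adjusted p of 0.352, and it was -0.07 without the 3 libraries with Xist counts.

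For Acot1 the interval was wide. It averaged 2.24 ± 0.41 CPM in JP2CR TAC and 1.59 ± 0.34 CPM in WT TAC, a log2 difference of 0.50 (95% interval -0.43 to 1.43; edgeR adjusted p = 0.716) between overlapping groups. In JP2CR sham against WT sham the log2 difference was -0.11 (95% interval -0.74 to 0.52; edgeR adjusted p = 0.962). The interaction was 0.61 (95% interval -0.51 to 1.73; edgeR adjusted p = 0.758). Its value was 0.31 without JP2CR sham 3, 1.06 without JP2CR sham 4 and 1.85 with the marker means as covariates, and its adjusted p stayed between 0.232 and 0.873 in the alternatives listed for it.

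The intervals of the more abundant members were narrower. In JP2CR TAC against WT TAC the interval of Acot9 ran from -0.08 to 0.19, that of Acot7 from -0.31 to 0.04, that of Acot2 from -0.29 to 0.33, that of Acot8 from -0.23 to 0.29 and that of Acot11 from -0.23 to 0.42. For Acot4 it ran from -0.54 to 0.76. In JP2CR sham against WT sham the widest interval was that of Acot4, from -0.88 to 0.52, and the narrowest that of Acot13, from -0.03 to 0.20.

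**Figure D5:**
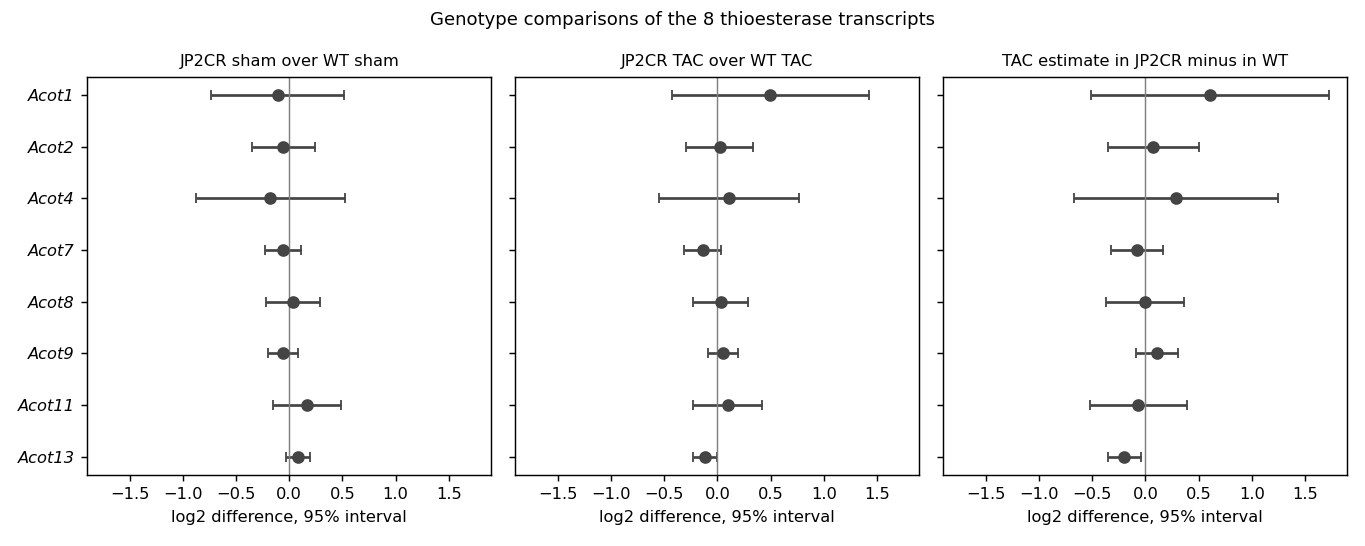
Log2 differences (x axis) with 95% intervals for the 8 members in JP2CR sham over WT sham, in JP2CR TAC over WT TAC and in the interaction (TAC estimate in JP2CR minus in WT). The intervals of Acot1 and Acot4 are the widest, and the interval of Acot13 in the interaction, -0.36 to -0.04, does not reach 0 while its adjusted p is 0.352.

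Other acyl-CoA thioesterases were tested after TAC, as they were not among the members. Of 10 on the list, 4 passed the filter. By edgeR's quasi-likelihood test 2 fell and 0 rose in WT, and 3 fell and 0 rose in JP2CR, where 20.8% of all genes fell and 21.1% rose in WT and 20.7% did each in JP2CR. Them6, a protein of the thioesterase superfamily, fell to 7.66 ± 1.22 CPM in WT TAC, against 15.6 ± 0.59 CPM in WT sham (log2 fold change -1.03 ± 0.11, edgeR adjusted p = 6.43e-07). It fell to 7.66 ± 0.25 CPM in JP2CR TAC, against 13.3 ± 1.56 CPM in JP2CR sham (-0.81 ± 0.11, edgeR adjusted p = 1.34e-05). Acot3, a peroxisomal cluster gene whose coding sequence was 83.93% identical to that of Acot1, had 0 to 7 counts per library in WT TAC, against 12 to 18 counts in WT sham, and 0 to 3 counts in JP2CR TAC, against 8 to 15 counts in JP2CR sham. It is 1 of the genes counted as fallen in each genotype, but it passed the filter on low counts only through sham libraries, so its place among the tested genes already required a higher sham level, and its p is not given. Acot6, at the end of the cluster, had 2.23 ± 0.61 CPM in WT TAC and 1.95 ± 0.51 CPM in WT sham (edgeR adjusted p = 0.534), and fell by 0.81 ± 0.24 on the log2 scale in JP2CR (edgeR adjusted p = 0.0133, and 0.0710 without 5 libraries). The difference between these 2 effects did not pass the test (edgeR adjusted p = 0.264). Them4 did not pass it in either genotype. Acot5, Acot10, Acot12, Them5, Baat and Olah had at most 5 counts in any library.

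The acyl-CoA synthetases and fatty acid transport proteins catalyse the step opposite to that of the thioesterases. Of 13 tested, 5 fell and 2 rose in WT TAC, and 6 fell and 0 rose in JP2CR TAC. For this list and those that follow, 20.8% of all genes fell and 21.1% rose in WT, and 20.7% did each in JP2CR. Acsl1, the main long-chain acyl-CoA synthetase of heart, fell to 923 ± 29.1 CPM in WT TAC, against 1364 ± 3.72 CPM in WT sham (log2 fold change -0.57 ± 0.06, edgeR adjusted p = 1.48e-06), and its JP2CR estimate was -0.52 ± 0.06. Slc27a1, a fatty acid transport protein, fell by 1.05 ± 0.12 on the log2 scale in WT and by 0.91 ± 0.12 in JP2CR. Acss1, the mitochondrial acetyl-CoA synthetase, fell by 0.48 ± 0.07 in each. Acsl6 fell by 0.93 ± 0.14 in WT (edgeR adjusted p = 5.62e-05, and 0.106 with the marker means as covariates). Its JP2CR estimate was -0.39 ± 0.15, and the call at an edgeR adjusted p of 0.0449 was lost in 17 of 29 alternatives, 11 of the 16 that left out 1 library among them. Acss3 passed the filter only through sham libraries and the count of fallen genes in WT includes it. It had 0.31 CPM in WT TAC and 1.30 CPM in WT sham, and 0.77 CPM in JP2CR TAC and 1.23 CPM in JP2CR sham.

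The downstream use of acyl-CoA in mitochondria and peroxisomes was read from 2 further lists. Of 23 genes of the carnitine shuttle and mitochondrial beta-oxidation, 20 fell and 0 rose in each genotype, with a median log2 fold change of -0.61 in WT and -0.51 in JP2CR. In JP2CR Hadh fell by 0.73 ± 0.06, Eci1 by 0.71 ± 0.06 and Decr1 by 0.52 ± 0.06. Of 19 genes of peroxisomal acyl-CoA metabolism, 11 fell and 2 rose in each genotype. In WT, 5 fell and 1 rose with the marker means as covariates. Crat, carnitine acetyltransferase, fell to 540 CPM in WT TAC, against 903 CPM in WT sham (-0.75 ± 0.05, edgeR adjusted p = 1.01e-08), and Abcd2, a peroxisomal importer of very long-chain acyl-CoA, by 1.32 ± 0.16 in WT. The JP2CR estimate of Abcd2 was -0.47 ± 0.16 (edgeR adjusted p = 0.0239), and the call was lost without JP2CR sham 3 (0.0936), without JP2CR TAC 2 (0.0530), 3 (0.0605) or 4 (0.0713) and without the 3 libraries with Xist counts (0.198). Acox2 of the same list passed the filter only through TAC libraries. Phyh, which starts the breakdown of phytanoyl-CoA, fell by 0.42 ± 0.05 in WT and by 0.34 ± 0.05 in JP2CR.

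Coenzyme A, the other product of thioesterases, was represented by 15 tested genes of its synthesis and turnover, of which 8 fell and 2 rose in WT and 7 fell and 1 rose in JP2CR. Slc25a42, the mitochondrial coenzyme A carrier, fell to 69.6 CPM in WT TAC, against 148 CPM in WT sham (-1.09 ± 0.10, edgeR adjusted p = 1.43e-07), and by 0.95 ± 0.10 in JP2CR. Dbi, the acyl-CoA binding protein, fell by 0.76 ± 0.07 in WT and by 0.44 ± 0.07 in JP2CR. Pank1, a pantothenate kinase that sets the rate of coenzyme A synthesis, fell by 0.67 ± 0.07 in WT and by 0.42 ± 0.07 in JP2CR.

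Of 24 tested target genes of PPAR-alpha in heart, 17 fell and 0 rose in WT, and 11 fell and 2 rose in JP2CR. Angptl4, a secreted inhibitor of lipoprotein lipase, was 1 of the 2 counted as risen. It had 10.3 ± 4.86 CPM in JP2CR TAC and 5.32 ± 1.64 CPM in JP2CR sham (edgeR adjusted p = 0.0438), and the call was lost in 17 of 29 alternatives, with DESeq2 (0.0586), limma voom (0.127) and 9 of the 16 fits that left out 1 library among them. Ucp2, a mitochondrial carrier, fell by 0.70 ± 0.16 in WT (edgeR adjusted p = 0.00224, and 0.514 with the marker means as covariates), and its JP2CR estimate was 0.12 ± 0.16. Ucp2 was higher in JP2CR TAC, at 86.0 CPM, than in WT TAC, at 48.8 CPM (edgeR adjusted p = 0.0313). That call was lost with the marker means as covariates (0.230), without WT TAC 3 and JP2CR TAC 3 (0.244), and without any single one of WT sham 3, WT TAC 2, 3 and 4 and JP2CR TAC 1, 3 and 4 (0.0518 to 0.112). Ppara itself, the receptor, was called lower in both genotypes (edgeR adjusted p = 0.0104 in WT and 0.00929 in JP2CR), but in WT not with the marker means as covariates (0.166) and in JP2CR not without the 3 libraries with Xist counts (0.303). In JP2CR sham it stood at 138 and 144 CPM in replicates 1 and 2 and at 183 and 179 CPM in replicates 3 and 4, the libraries with Xist counts. By group it had 111 ± 9.64 CPM in WT TAC and 135 ± 1.81 CPM in WT sham, and 133 ± 3.79 CPM in JP2CR TAC and 161 ± 23.4 CPM in JP2CR sham, a log2 fold change of -0.29 ± 0.08 in each genotype. Rxra, its partner receptor, fell by 0.43 ± 0.05 in WT and by 0.37 ± 0.05 in JP2CR. Of the 17 genes of this receptor and coactivator list, 5 fell and 3 rose in WT, and 6 fell and 1 rose in JP2CR, where 20.8% and 21.1% of all genes fell and rose in WT and 20.7% did each in JP2CR. In WT, 3 fell without WT sham 2 or WT sham 4, and with the marker means as covariates 2 fell and 2 rose. In JP2CR, 2 rose without JP2CR sham 1 or 2 and 3 without JP2CR sham 3. Ppargc1b, a coactivator, fell by 0.34 ± 0.09 in JP2CR (edgeR adjusted p = 0.00521, and 0.0775 without 5 libraries). Its WT estimate was 0.28 ± 0.09 (edgeR adjusted p = 0.0165), and that call was lost without WT sham 1 (0.0530), without WT TAC 2 (0.0778), without WT TAC 3 and JP2CR TAC 3 (0.0532) and with the marker means as covariates (0.211). The interaction was -0.62 ± 0.12 (edgeR adjusted p = 0.0549).

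Over all 104 tested pathway genes, 59 fell and 9 rose in WT and 56 fell and 6 rose in JP2CR. The 104 include Acot3 and Acss3, which passed the filter only through sham libraries, and Acox2, which passed it only through TAC libraries. Of all genes, 20.8% fell and 21.1% rose in WT, and 20.7% did each in JP2CR. In the same comparisons 9 of 10 adipocyte markers fell in WT and 0 in JP2CR, and 9 of 10 atrial markers fell and 1 rose in WT and 6 fell in JP2CR. Macrophage markers rose in 8 of 10 cases in each genotype, and 1 fell in WT. Among 8 fibroblast markers 3 rose and 1 fell in WT, and 3 rose and 2 fell in JP2CR. Among 8 endothelial markers 0 rose and 0 fell in WT, and 0 rose and 2 fell in JP2CR. Of 10 ventricular cardiomyocyte markers, 6 fell and 1 rose in WT and 7 fell and 1 rose in JP2CR, and 5 of 6 tested nerve and Schwann cell markers fell in each. The part of these in the pathway counts was not tested beyond the fit with adipocyte and atrial marker means. In WT that fit cannot tell TAC and those markers apart. Between genotypes edgeR called 0 of the pathway genes in sham, 2 in TAC (Ucp2 and Pparg) and 0 in the interaction. Pparg is named after its value was seen. At an unadjusted p under 0.05 there were 16, 15 and 20 (15.4%, 14.4% and 19.2%, where 7.97%, 12.9% and 10.3% of all genes were). DESeq2 called 1, 3 and 3, and limma voom 0, 2 and 0. Without the 3 libraries with Xist counts edgeR called 0, 4 and 7 of 105. The call of Pparg was lost in 12 of 29 alternatives.

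Genes with a pattern most like that of Acot1 were sought among 11514 genes by the correlation of log2 CPM over the 16 libraries, a description in which the groups themselves give most of the likeness. Hsdl2 was first (Pearson r = 0.986), followed by Acsl1 (0.981), Nadk2 (0.976), Agpat3 (0.976), Acot2 (0.974), Entpd5 (0.973), Impa2 (0.972) and Etfdh (0.970). Acsl1 makes the long-chain acyl-CoA that Acot1 splits, Nadk2 is the mitochondrial NAD kinase, Agpat3 an acyltransferase that takes acyl-CoA into phospholipid precursors, and Etfdh passes electrons from fatty acid oxidation to the respiratory chain. After each group's mean was subtracted, Hsdl2 (0.928) and Acsl1 (0.908) stayed first, followed by Agpat3 (0.899), Cs (0.894) and Prrg1 (0.894), and Acot2 ranked 11 (0.876). Over the 13 libraries without Xist counts the within-group r was 0.940 for Hsdl2, 0.885 for Acsl1 and 0.747 for Acot2, but 0.582 for Agpat3, 0.349 for Cs and 0.445 for Prrg1.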

How the data were processed

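For each of the 16 libraries the authors deposited unnormalized counts of reads, 1 whole number per gene symbol. Stranded polyadenylated RNA libraries were made from Trizol-extracted ventricles, per the labels' protocols. The submitters' processing notes name the build mm10 and Picard, Cufflinks, FastQC, DESeq2, STAR and bedtools. What each was used for, the counter with its strand setting, and the annotation: not given in the sources used here. The authors' table also holds log2 fold changes of TAC over sham in each genotype, deposited without a stated method, and these are quoted only where that table is named. Its 27 symbols turned into dates were left as they stood.

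Counts were filtered with filterByExpr per group, scaled by TMM and fitted with 1 mean per group over all 16 libraries in edgeR 4.0.16 (R 4.3.3). The test was the quasi-likelihood F test, and a gene was called at a Benjamini-Hochberg adjusted p under 0.05 over all genes of a comparison. The SE is the log2 fold change divided by the square root of F, and 95% intervals use the degrees of freedom of the fit. The 5 comparisons were TAC over sham in each genotype, JP2CR over WT in sham and in TAC, and the interaction. The comparisons share groups, so their values are given side by side.

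The 8 members and all gene lists were chosen with earlier results of these data known. The members' TAC values carry no test. Named genes were the members, the other thioesterases, Ppara, from each list the 4 smallest p in WT TAC and the 2 smallest in the interaction, and for Acot1 the 8 genes most correlated over the libraries and the 5 within groups, at a mean log2 CPM of 1 or more (prior count 2); some of them are left out of the text for brevity. Groups and replicate numbers come from the sample titles. Since no label says which animal a library came from, the spread behind each p-value is that between libraries and may be partly technical. The 24 correlations of same-numbered libraries' deviations from their group means ran from -0.188 to 0.108, with 1 over 0.1, so the numbers were not taken to pair libraries. Replicates differed beyond sampling noise, with chi-square per degree of freedom of at least 1.51.

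The fits were tested on simulated counts with known changes before use. Alternatives were DESeq2 1.42.0, limma 3.58.1 (voom), other scalings, filters and thresholds, the replicate block and separate fits for each pair of groups. Others used marker means as covariates or left out each library in turn. In WT the marker means did not overlap between TAC and sham libraries. A WT call lost or an estimate moved in that fit therefore cannot be read as a part of the markers rather than of TAC. Further fits left out the 3 libraries with Xist counts, WT TAC 3 and JP2CR TAC 3, or all 5. Of these, the fit without 5 libraries at once was chosen after seeing the data, as were the correlations over 13 libraries. WT TAC 3 and JP2CR TAC 3 did not stand apart from their groups. Their chi-square per degree of freedom against group mates was 3.842 to 5.045 and 4.251 to 6.275. Replicates 1 and 2 of those groups gave 15.44 and 15.01. Several markers of WT TAC 3 and JP2CR TAC 3 lay between replicates 1 and 2 of their group. Nppa was 5818 CPM in WT TAC 3, between 7274 and 4263 CPM. Cfd was 23.6 CPM in JP2CR TAC 3, between 44.6 and 0.813 CPM. Not every marker did so, as Adgre1 was 21.9 CPM in WT TAC 3, above 18.2 and 20.8 CPM. Whether libraries of a group share material was not tested. Gene positions come from GENCODE M21 and promoters from RefSeq. The exact binomial intervals and the floors cover counting error only. The intervals of log2 differences use the SE of the fit, which includes the spread between libraries. Figures were drawn with matplotlib.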

Additional observations from a re-analysis of the deposited data

Results flagged for a closer look

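Acot11 in WT sham 1 stood at 39.98 CPM, apart from the other WT sham libraries, which lay between 46.3 and 47.2 CPM. The gap to the nearest of them was 0.87 of the group's whole range, above the 95% limit of Dixon's test for 4 values. It was the single such value among 32 sets of 4 libraries examined, and chance gives about 1 in 20. The adipocyte marker sum in WT sham 1 was 54.1 CPM, the lowest of the WT sham libraries, which otherwise ran up to 282 CPM. Its part in the value was not tested.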

How the results depend on the processing

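None of the 8 members was called in JP2CR against WT in sham or in TAC under 29 alternatives, nor in the interaction under 28, as fits of only the groups compared give no interaction; 16 of them each left out 1 library. Under these alternatives there were 1152 member values. Only those of the TAC comparisons were set against the spread between replicates, and 10 of them moved by more than it. In the genotype comparisons and the interaction only a change of call was counted, so how far those values moved was not. The Acot1 interaction ran from 0.31 to 1.85 and the Acot2 interaction from -0.03 to 0.48, against 0.61 and 0.08 in the main fit. No member was called, so there was no called direction to reverse. The cause of the moves was not tested. Values that were not called changed sign 43 times in the genotype comparisons and 10 times in the TAC comparisons, in the TAC comparisons for Acot4, Acot8, Acot11 and Acot13. The lowest and highest counts of called pathway genes with 1 library left out were 65 and 71 in WT TAC and 57 and 64 in JP2CR TAC, against 68 and 62 with all libraries. DESeq2 gave 69 and 59, the marker means as covariates 49 and 72, and the fit without 5 libraries 68 and 49.

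With the replicate number as a block, Acot1 was -2.92 in WT, -2.20 in JP2CR and 0.72 in the interaction (edgeR adjusted p = 0.655). The block changed no call of a member.

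Over all genes, the 13, 88 and 16 genes called between genotypes in sham, in TAC and in the interaction became 52, 229 and 132 with DESeq2, 64, 378 and 372 after the 3 libraries with Xist counts were left out, 6, 4 and 0 without WT TAC 3 and JP2CR TAC 3, and 2, 5 and 0 at an adjusted p under 0.01. Without a filter on low counts the sham and interaction counts were 25 and 39, with the block they were 22 and 9, and with only the groups compared the TAC count was 157. With the marker means as covariates they were 24, 15 and 14, without 5 libraries 22, 19 and 59, and with 1 library left out 5 to 28, 8 (without WT TAC 3) to 246 (without JP2CR sham 3) and 2 (without WT sham 3) to 120 (without JP2CR sham 3). In WT TAC the covariates gave 2828 called genes, against 5665. Depth limits Acot4 most, with 8 to 27 counts per library, and Acot1 after TAC, with 17 to 40.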
